A study of Mus musculus with 36 samples.

Results

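The genes described here are the G1 cyclins Ccnd1, Ccnd2, Ccnd3, Ccne1 and Ccne2, the kinases Cdk4 and Cdk6, and the Cdk inhibitors Cdkn1b, Cdkn1c and Cdkn2c. They were found by matching these symbols to the Ensembl identifiers of 3 deposited tables, which gave 1 row per gene in each table, 10 of the 30125 genes listed in at least 1 table. The study asked how the level of canonical Wnt signalling directs mouse nephron progenitor cells (NPCs), the cells that renew themselves or form nephrons in the embryonic kidney. RNA was sequenced from 36 libraries of primary NPCs, isolated from embryonic kidneys of Swiss Webster or C57Bl/6 mice by magnetic depletion of other cells and cultured in nephron progenitor expansion medium. CHIR99021 (CHIR) inhibits GSK3β and so stabilizes β-catenin. It was absent (no CHIR, 0 µM), low (1.25 µM) or high (5 µM).

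Wild-type NPCs were cultured in no, low or high CHIR, with 3 libraries each. NPCs of the Cas9-eGFP genotype received either a guide RNA against GFP (control) or guides against Ctnnb1, the gene of β-catenin. NPCs with the conditional β-catenin c/c allele received Cre mRNA or none. Each of these 4 treatments had 2 libraries in low and 2 in high CHIR, all of them from cells sorted for a co-transfected mCherry mRNA. The Tcf/Lef experiment used Cas9 cells with the GFP guide (3 libraries in low and 3 in high CHIR) or with guides against Tcf7l1, Tcf7l2, Tcf7 and Lef1 together, the quadruple knockout (QKO; 2 libraries in low and 3 in high CHIR). Cells of the Tcf/Lef experiment also received mCherry mRNA with their guides. Knockout cells spent their removal period in low CHIR, a day longer in the Tcf/Lef experiment, before the final day in low or high CHIR. Nothing in the labels says which libraries came from separate litters, so p-values measure the spread between these libraries, which may be technical.

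D cyclins bind Cdk4 and Cdk6 and carry growth signals into the cell cycle, since the active kinases phosphorylate the retinoblastoma protein and release E2F factors. E cyclins act later with Cdk2 at the entry into S phase. The Cip/Kip proteins p27 (Cdkn1b) and p57 (Cdkn1c) restrain cyclin-Cdk complexes, and INK4 proteins such as p18 (Cdkn2c) bind Cdk4 and Cdk6 directly. In the fetal kidney p57 is known from cells that leave the cycle to differentiate, and Ccnd1 is a textbook Wnt target in other tissues.

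The study's guides against the Wnt effectors are shown because the knockout comparisons below rest on them. Each line gives the genomic target on GRCm38, read 5′ to 3′ from GENCODE vM21 transcripts, with the PAM, the motif Cas9 needs, in capitals.
Ctnnb1 guide 1: atgagcagcgtcaaactgcgTGG
Ctnnb1 guide 3: agccaagcgctggacattagTGG
Ctnnb1 guide 5: agctacttgctcttgcgtgaAGG
Ctnnb1 guide 6: gagattatgcagtgtcgtgaTGG
Tcf7l1 guide: cttaaaaaaagcgccatcctGGG
Tcf7 guide: agctgggggacgccatgtggAGG
Tcf7l2 guide: ttagcggccaagaggcaagaTGG
The Ctnnb1 sites are on the minus strand of chromosome 9, against the gene. Guides 1 and 3 lie in coding exon 4 of transcript Ctnnb1-201 at chr9:120950984-120951006 and chr9:120951008-120951030. Guide 5 lies in coding exon 3 at chr9:120950726-120950748 and guide 6 in coding exon 6 at chr9:120951615-120951637. The Tcf7l1 site is in coding exon 3 of Tcf7l1-201 (chr6:72788307-72788329, plus strand), and the Tcf7 site is in coding exon 3 of Tcf7-201 (chr11:52261584-52261606, plus strand). The Tcf7l2 guide matched 1 of 22 annotated transcripts in full, in an exon with no annotated coding sequence there (chr19:55743069-55743091, plus strand). A site that crosses an exon edge is missed in transcripts spliced at that edge. Whether this site is coding in other Tcf7l2 transcripts was therefore not settled. The study's criteria for its Tcf/Lef guides included an early coding exon shared by the transcripts of the gene. No annotated Lef1 transcript held the whole Lef1 guide. Only transcript sequences were searched, so its genomic site could not be placed.

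The targeted genes were read first. Ctnnb1 stood at 1652 and 1040 normalized counts with its guides in low CHIR against 2521 and 3397 in controls, and at 1630 and 1270 against 2632 and 2701 in high CHIR (log2 change −0.89, limma adjusted p = 0.043 in high CHIR; −1.16, limma adjusted p = 0.25 in low CHIR). Cre left it at 2254 and 2583 against 2423 and 2207 in high CHIR, and a total over the whole gene does not read a deleted stretch or a small indel. In the QKO in high CHIR Tcf7 fell by 1.64 on the log2 scale (limma adjusted p = 0.017), while Tcf7l1, Tcf7l2 and Lef1 did not pass in either CHIR level. These are RNA totals. The study measured removal by protein staining, and the loss it reported was partial. Membrane β-catenin was reduced with guides and with Cre but still present. With individual guides most Tcf7l1, Tcf7l2 and Lef1 protein was removed, and less of the Tcf7 protein. In the QKO each guide was used at a lower amount than alone. The knockout comparisons below are therefore of incomplete removal. Libraries held 13089780 to 76071568 reads counted in genes. One wild-type library in high CHIR, replicate 3, stood apart from its group: Cdkn1a, another Cip/Kip inhibitor, was at 25493 normalized counts against 4081 and 2418, and Gata3 at 623 against 4283 and 4098. For the genes described here, calls in wild-type high against low CHIR are therefore given with and without it. Their other wild-type results are given without it only where stated, and fold changes of further genes are given only with it.

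The cells carried the nephron progenitor markers Six2, Cited1, Eya1, Meox1, Osr1, Sall1, Wt1 and Pax2, whose summed level in wild type was 15446 to 20312 in low and 4146 to 9031 in high CHIR. The 6 markers of induced progenitors (Wnt4, Lef1, Jag1, Fgf8, Lhx1 and Pax8) summed to 2979 to 5776 in low and 24388 to 33698 in high CHIR. In high CHIR they summed to 18748 to 24534 in the β-catenin controls, 4912 to 7417 with Ctnnb1 guides, 3113 to 3482 with Cre, 21545 to 37881 in the Tcf/Lef controls and 10473 to 20051 in the QKO. Of other cell types, the 5 endothelial markers summed to at most 69.2 in all libraries but those of wild-type high CHIR. There they summed to 109, 64.2 and, in replicate 3, 1399. Tie1 and Cdh5 were both at 0 in that replicate 3, so its sum came from the other endothelial genes listed. Tie1 was at 0 in 20 of 36 libraries. Of 6 markers of ureteric epithelium, Gata3 among them, the 5 in the wild-type table summed to 168 to 583 in low and 995 to 4979 in high CHIR. Gata3 alone, at the levels given above, made up most of each of these high CHIR sums. All 6 markers were in the Tcf/Lef table, where they summed to 26.6 to 74.6 in low and 203 to 618 in high CHIR controls, and to 81.0 to 203 in the QKO in high CHIR. The blood markers in the tables, 3 to 5 of 6, summed to 5.32 to 177. The 7 stromal markers summed to 6989 to 28422 in wild-type no CHIR, 10984 to 16368 in low and 3776 to 11174 in high CHIR. In high CHIR they summed to 7100 to 12530 with Cre against 4909 to 6070 without, 12170 to 19158 with Ctnnb1 guides against 4714 to 13974, and 1215 to 8081 in the QKO against 1044 to 4059. In low CHIR the stromal sums were 10673 to 15708 with Cre against 4862 to 10636 without, with no overlap. With Ctnnb1 guides they were 13340 to 25482 against 8697 to 20950. The QKO held 2869 to 14889 against 3210 to 8455, its higher value being that of replicate 1. The part of these other cell types in the results below was not tested.

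**Figure D1:**
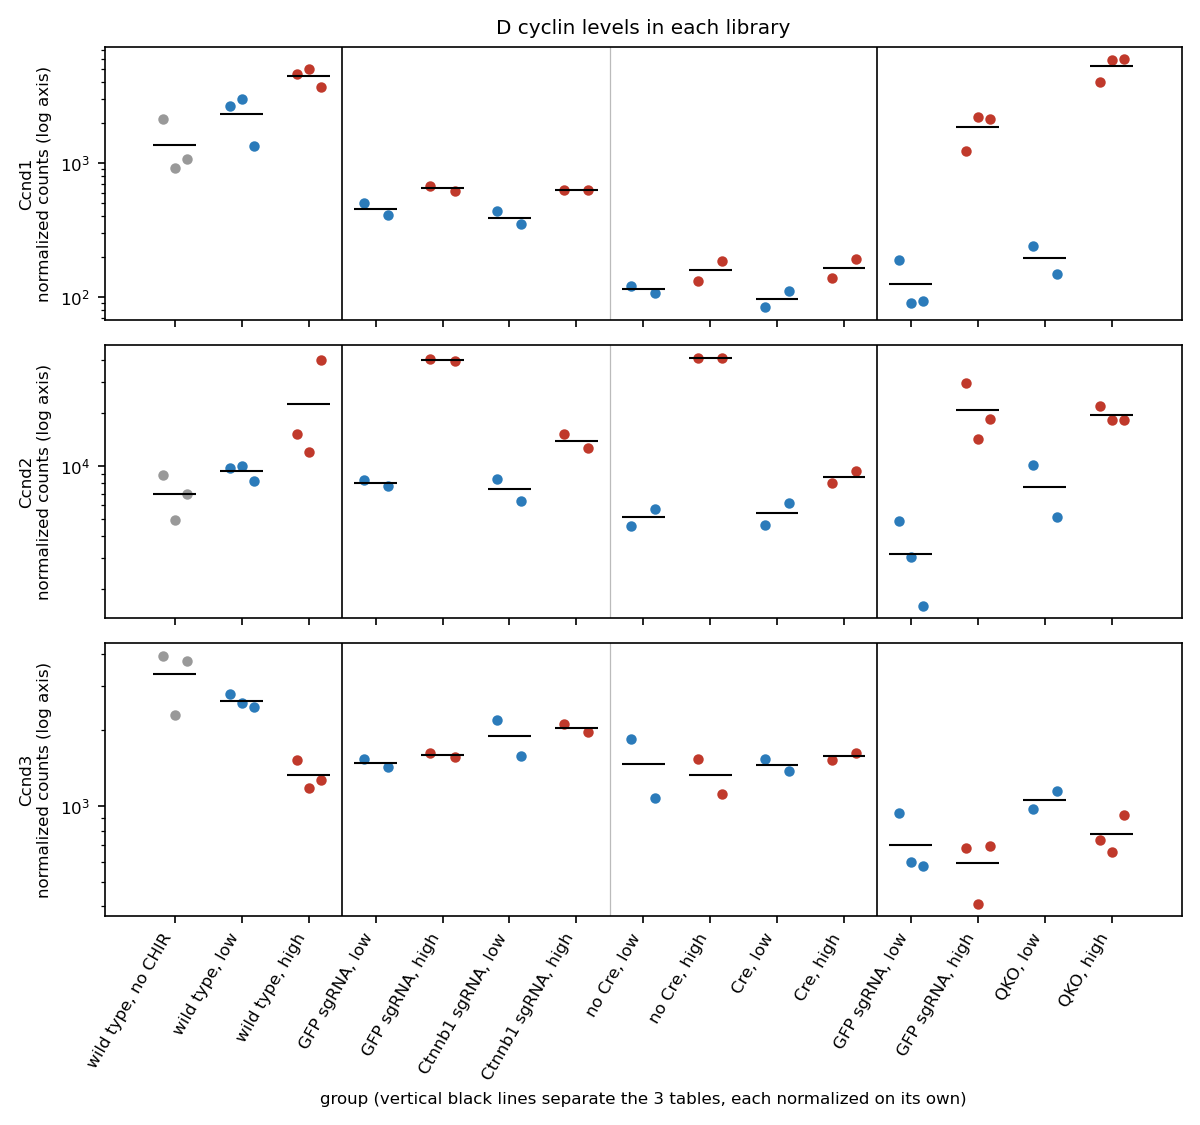
Normalized counts (log axis) of Ccnd1, Ccnd2 and Ccnd3 in each library. Grey points are no CHIR, blue low and red high CHIR, black bars are group means. Ccnd2 in high CHIR lies between 39609 and 41485 in both β-catenin control sets and between 8063 and 15356 after removal.

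Ccnd2, the cyclin D2 gene (chr6:127125162-127152193, minus strand), rose with high CHIR in every transfected control set and was lower in high CHIR where β-catenin had been removed. In the Cas9 controls it stood at 8338 and 7730 normalized counts in low CHIR and at 40476 and 39609 in high CHIR. The floxed cells without Cre held 4560 and 5700 in low and 41485 and 41045 in high CHIR. The GFP controls of the Tcf/Lef experiment held 4864, 3055 and 1616 in low and 29857, 14343 and 18491 in high CHIR. Every high library lay above every low one in these sets. The log2 differences were 2.32 ± 0.20 (SE, n = 2 against 2; limma adjusted p = 1.1e-05), 3.02 ± 0.20 (n = 2 against 2; limma adjusted p = 1.2e-06) and 2.79 ± 0.38 (n = 3 against 3; limma adjusted p = 0.00041). In bulk RNA a change in the share of cells that express a gene and a change in RNA per cell cannot be told apart.

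In wild-type cells Ccnd2 was at 9837, 9990 and 8222 in low CHIR and at 15359, 12091 and 40103 in high CHIR. The groups did not overlap, but the highest value was that of replicate 3. The difference of 1.07 ± 0.38 did not pass (limma adjusted p = 0.11), and without that library it was 0.55 (limma adjusted p = 0.16). DESeq2 on the recovered reads gave 1.27 with an adjusted p = 0.011. Against no CHIR (8910, 4954 and 6992) the rise to high CHIR was 1.53 ± 0.38 (limma adjusted p = 0.015), and 1.01 without replicate 3 (limma adjusted p = 0.0094). It was not called when no-CHIR replicate 2 was left out (1.31, limma adjusted p = 0.062). No and low CHIR differed by −0.46 (limma adjusted p = 0.52, 95% interval −1.31 to 0.38).

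The 4 control sets share no library. In them 3 of the 10 genes, Ccnd1, Ccnd2 and Cdk6, were higher in high CHIR by the fitted value in all 4 sets, against 19.9% of the 14952 genes tested in all of them. Ccnd2 was the member called higher in at least 3 sets, which 2.17% of those genes were.

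**Figure D2:**
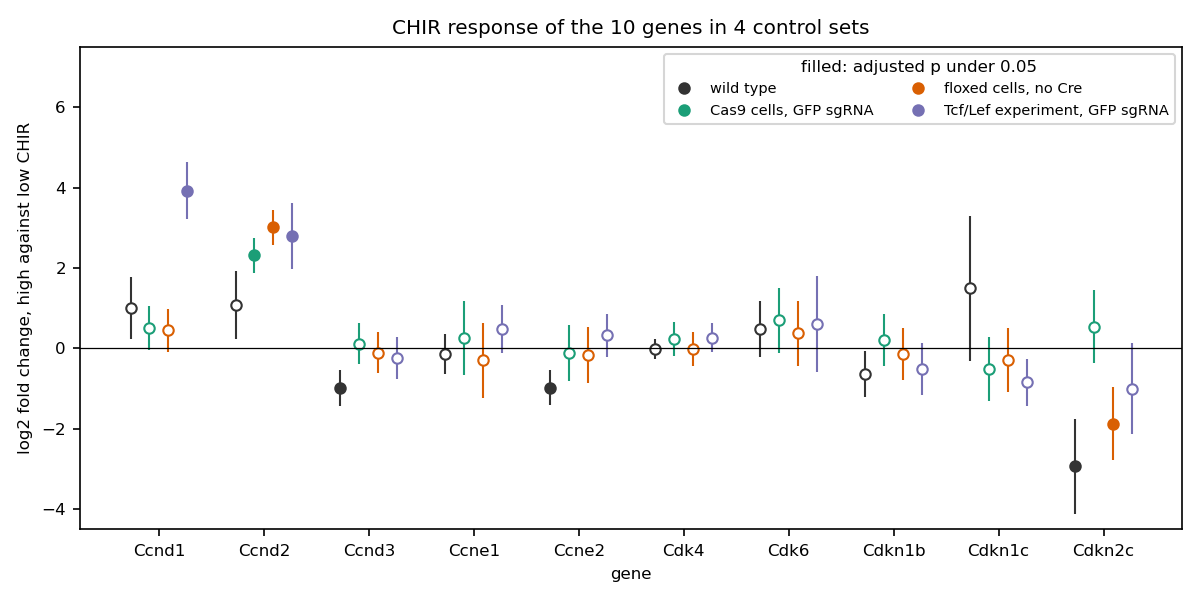
Log2 fold change in high against low CHIR for each gene, with 95% intervals, in 4 control sets that share no libraries. Filled points passed an adjusted p of 0.05: Ccnd2 in the 3 transfected sets, Ccnd1 in the Tcf/Lef controls, Cdkn2c in wild type and in cells without Cre, and Ccnd3 and Ccne2 in wild type.

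Guides against Ctnnb1 left Ccnd2 at 15356 and 12642 in high CHIR, which is 1.52 ± 0.20 below the control on the log2 scale (limma adjusted p = 0.00060). Cre left it at 8063 and 9431, lower by 2.24 ± 0.20 (limma adjusted p = 1.3e-05). In low CHIR neither removal moved Ccnd2 past the test. The values were 8443 and 6372 with Ctnnb1 guides (difference −0.13, 95% interval −0.57 to 0.30) and 4629 and 6229 with Cre (0.07, interval −0.36 to 0.51). Of 16780 genes, 1.03% were called lower in high CHIR by both removals, and Ccnd2 was the member among them.

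The change in the CHIR response itself was tested as an interaction. For Ccnd2 it was −2.32 ± 0.29 with Cre (limma adjusted p = 0.00099), and 0.995% of all genes passed that test. With the guides it was −1.39 ± 0.29 and missed the threshold (limma adjusted p = 0.052; 0.518% of all genes passed). It passed in a fit of the Cas9 libraries alone (limma adjusted p = 0.040) and with DESeq2 (adjusted p = 0.00058). No other member passed either interaction in the fit by group. After removal the high CHIR libraries still lay above the low ones for Ccnd2, by 0.93 (limma adjusted p = 0.059) with guides and 0.70 (limma adjusted p = 0.49) with Cre. Neither was called in the fit by group. Both were called with the replicate number as a block, though here that number is only shared and not known to pair libraries. In the fit by group those 2 comparisons called 0.763% and 0.292% of all genes and no member (3 and 2 members at an unadjusted p under 0.05, none by edgeR, and 2 and 0 by DESeq2, namely Ccnd2 and Cdkn1c).

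The QKO comparison asked the same of the Tcf/Lef factors. QKO cells held Ccnd2 at 22045, 18430 and 18276 in high CHIR, within the range of the controls (difference −0.03, 95% interval −0.86 to 0.79, limma adjusted p = 0.98). In low CHIR their libraries, at 10175 and 5131, both lay above the 3 controls, by 1.32 ± 0.42 (limma adjusted p = 0.90 over all genes). With a block for the replicate number that difference was 1.25 (limma adjusted p = 0.17). The difference between low and high CHIR in the QKO was 1.43 ± 0.42 (limma adjusted p = 0.11). It passed with the replicate block, at 1.51 (limma adjusted p = 0.0052), while the interaction did not pass with or without the block (−1.36, limma adjusted p = 0.91, and −1.28, limma adjusted p = 0.14). That interaction called 0.126% of all genes and no member, with 1 member at an unadjusted p under 0.05 and none by edgeR or DESeq2.

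**Figure D3:**
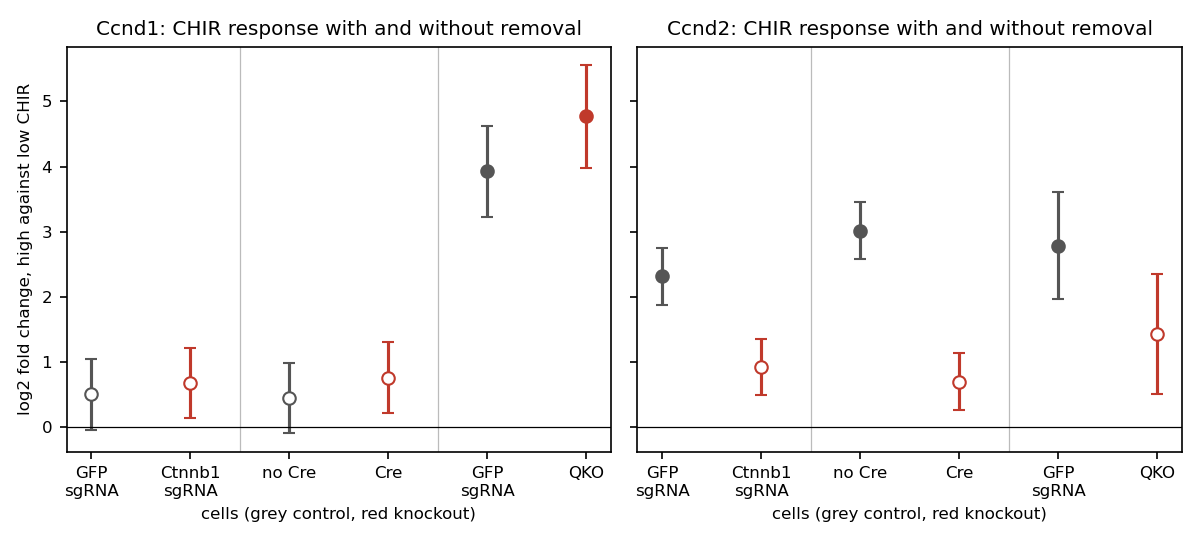
Log2 fold change in high against low CHIR, with 95% intervals, of Ccnd1 and Ccnd2 in control (grey) and knockout (red) cells. Filled points passed an adjusted p of 0.05. The Ccnd2 response was 2.32 and 3.02 in controls and 0.93 and 0.70 after β-catenin removal, and the Ccnd1 response was 3.93 in Tcf/Lef controls and 4.77 in the QKO.

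Ccnd1, the cyclin D1 gene (chr7:144929931-144939925, minus strand), differed in level between the cell sets. Within the Ctnnb1 table it ranged from 349 to 678 normalized counts in Cas9 cells and from 83.8 to 193 in floxed cells, with no overlap between the 2 kinds of cells. Wild-type cells held 915 to 5035, although that table was normalized on its own. The GFP controls of the Tcf/Lef experiment, also Cas9 cells, held 90.8 to 190 in low and 1225 to 2220 in high CHIR. Their low CHIR values lay within the range of the floxed cells, though their table too was normalized on its own. The genotype, strain and preparation of these sets cannot be told apart.

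In the Tcf/Lef controls Ccnd1 was at 190, 90.8 and 93.4 in low CHIR and at 1225, 2220 and 2126 in high CHIR, a rise of 3.93 ± 0.32 on the log2 scale (15.2-fold; limma adjusted p = 1.1e-05). In the controls of the Ctnnb1 table the same comparison gave 508 and 407 against 678 and 615 in Cas9 cells, and 122 and 107 against 133 and 185 in floxed cells. These differences of 0.51 and 0.45 did not pass (limma adjusted p = 0.27 and 0.32), with 95% intervals of −0.03 to 1.05 and −0.09 to 0.99. Wild-type cells held 2658, 2995 and 1334 in low and 4628, 5035 and 3691 in high CHIR, so the groups did not overlap, with a difference of 1.01 ± 0.35 (limma adjusted p = 0.10). Against no CHIR (2129, 915 and 1080) the rise was 1.78 ± 0.35 (limma adjusted p = 0.0049), and 1.91 without high CHIR replicate 3.

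Removal of β-catenin did not move Ccnd1 past the test. In high CHIR it was at 626 and 627 with Ctnnb1 guides (difference −0.04, 95% interval −0.59 to 0.50) and at 139 and 193 with Cre (0.07, interval −0.47 to 0.61). In low CHIR the differences were −0.22 and −0.25. In the QKO, Ccnd1 rose further. High CHIR libraries held 4051, 5856 and 5934, all above the 3 controls, by 1.53 ± 0.32 (2.90-fold; limma adjusted p = 0.028). Leaving out control replicate 1 or 2, or QKO replicate 2 or 3, ended this call, with values of 1.26 to 1.69 and limma adjusted p of 0.063 to 0.13. The replicate block kept it (limma adjusted p = 0.016). In low CHIR the QKO held 243 and 149, a difference of 0.69 ± 0.36 (limma adjusted p = 0.90). The CHIR response within the QKO was 4.77 ± 0.36 (27.2-fold; limma adjusted p = 3.8e-05), and its difference from the control response was 0.84 ± 0.48 (limma adjusted p = 1.0 over all genes, 95% interval −0.21 to 1.89).

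Ccnd3, the cyclin D3 gene (chr17:47505051-47599691, plus strand), fell in wild-type cells. Its values were 3948, 2298 and 3763 in no CHIR, 2788, 2575 and 2479 in low CHIR, and 1522, 1179 and 1273 in high CHIR. All high libraries lay below all others. The log2 change was −0.99 ± 0.20 from low CHIR (limma adjusted p = 0.011) and −1.30 ± 0.20 from no CHIR (limma adjusted p = 0.0013). Without high CHIR replicate 3 the change from low CHIR was −0.96 (limma adjusted p = 0.019). In the transfected controls Ccnd3 did not pass, with differences of 0.11, −0.11 and −0.24 in Cas9, floxed and Tcf/Lef cells and 95% intervals that lay between −0.77 and 0.62. No knockout moved it past the test, the largest difference being 0.62 in the QKO in low CHIR (977 and 1145 against 936, 598 and 577; limma adjusted p = 0.90).

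The 3 D cyclins were compared with each other on counts per kilobase of exon. Their summed level in Cas9 controls was 1120 ± 69.7 (SD, n = 2) per kilobase in low and 4576 ± 79.2 (n = 2) in high CHIR, and with Ctnnb1 guides 1853 ± 215 in high CHIR. In floxed cells without Cre it was 736 ± 21.9 in low and 4570 ± 58.9 in high CHIR, and after Cre 1145 ± 119 in high CHIR. In the Tcf/Lef experiment it was 2683 ± 752 (n = 3) in high CHIR controls and 3291 ± 15.8 (n = 3) in the QKO.

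**Figure D4:**
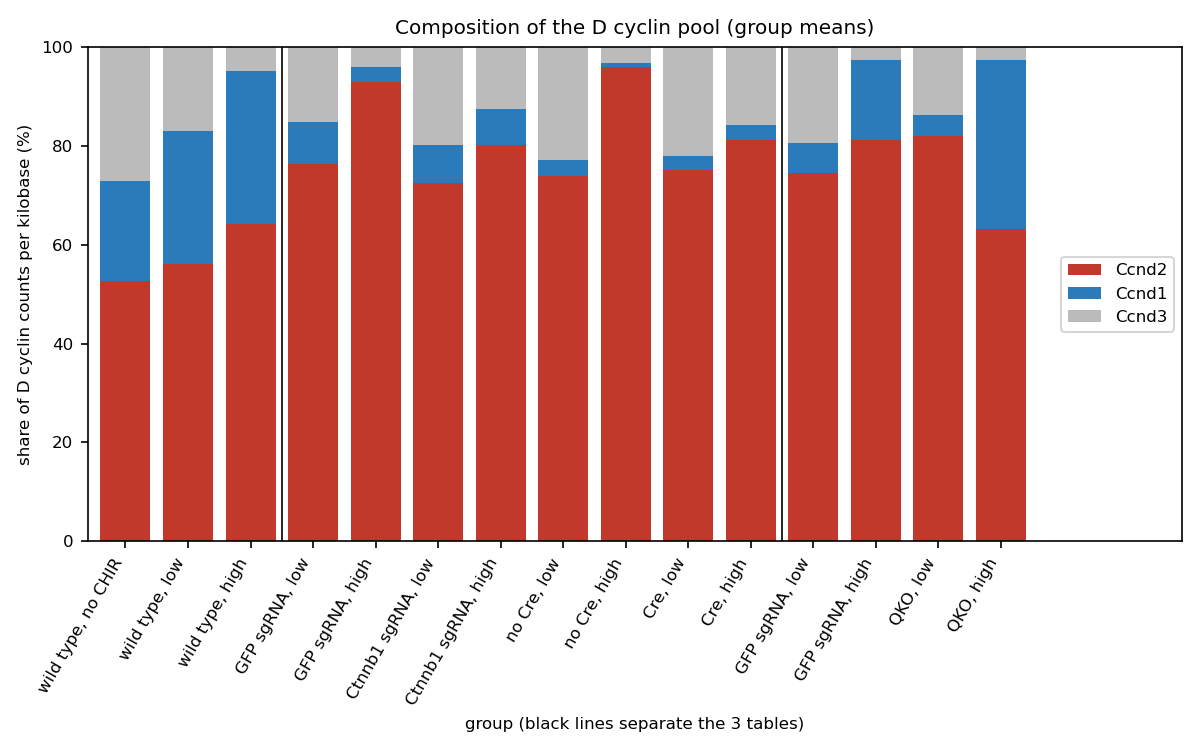
Share (%) of each D cyclin in the summed D cyclin counts per kilobase, as group means that add up to 100. Ccnd3 holds 13.7% to 22.8% in the low CHIR groups, at most 4.80% in high CHIR where β-catenin was left, and 12.6% and 15.7% where it was removed.

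Within that sum Ccnd2 held 93.0% ± 0.187 and 96.0% ± 0.513 in high CHIR in the Cas9 and floxed controls (n = 2 each), against 76.3% and 73.9% in low CHIR. After removal in high CHIR it was 80.2% ± 1.70 with guides and 81.2% ± 0.530 with Cre. Ccnd3 held 16.95% ± 2.48 in wild-type low and 4.80% ± 1.79 in high CHIR, a difference of −12.1 percentage points. In the Tcf/Lef controls it held 19.4% ± 5.34 and 2.56% ± 0.532, a difference of −16.8 points. Both gave p = 0.10 in a two-sided exact permutation test, the smallest value that 3 libraries against 3 allow. Ccnd1 held 34.1% ± 6.84 in QKO cells in high CHIR against 16.2% ± 8.01 in their controls. In wild type the share of Ccnd2 turned on 1 library, being 58.5%, 51.6% and 82.1% in high CHIR against 54.2%, 53.3% and 60.7% in low CHIR (p = 0.70, two-sided exact permutation test).

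Of the E cyclins, Ccne2 fell in wild-type high CHIR and Ccne1 was called in no comparison of the fit by group. Ccne1 (chr7:38097984-38107534, minus strand) ranged from 133 to 781 normalized counts over all libraries. In the Tcf/Lef controls it was at 374, 283 and 503 in low and 576, 408 and 620 in high CHIR (0.48, limma adjusted p = 0.28), which passed with the replicate block (limma adjusted p = 0.041). Ccne2 (chr4:11191351-11204779, plus strand) stood at 934, 824 and 767 in no, 1378, 1051 and 1550 in low, and 676, 807 and 537 in high CHIR in wild type. High and no CHIR both lay below low CHIR without overlap. The log2 change from low to high CHIR was −0.98 ± 0.19 (limma adjusted p = 0.0094). It was −0.83 without high CHIR replicate 3 (limma adjusted p = 0.015) and missed the threshold without low CHIR replicate 3 (−0.86, limma adjusted p = 0.053). The difference between no and low CHIR was −0.64 ± 0.19 (limma adjusted p = 0.086; DESeq2 adjusted p = 0.033). In the 3 transfected control sets Ccne2 differed by −0.12, −0.17 and 0.32, none of them called.

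Cdk4 (chr10:127063534-127067920, plus strand) was the most abundant member. Its mean of 5184 to 6953 normalized counts per kilobase placed it among the top 315 genes of each table. Over all 36 libraries it lay between 12625 and 26465 normalized counts, a narrower range, as a ratio, than that of any other member, although the 3 tables were normalized separately. It was called in no comparison of the fit by group, and its CHIR response was −0.01 in wild type (95% interval −0.27 to 0.24) and 0.23, −0.02 and 0.26 in the transfected controls. The last of these passed with the replicate block (limma adjusted p = 0.0497). With Cre, Cdk4 was at 14442 and 14038 against 24678 and 18023 in low CHIR, and at 14179 and 16970 against 22668 and 19078 in high CHIR, with no overlap. These differences of −0.57 and −0.42 did not pass (limma adjusted p = 0.29 and 0.23).

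Cdk6 (chr5:3341485-3531008, plus strand), the other partner of the D cyclins, was far scarcer, with mean levels of 11.1 to 26.1 normalized counts per kilobase. It was fitted higher in high CHIR in all 4 control sets, by 0.47, 0.70, 0.38 and 0.61, none of them called. In the QKO in high CHIR it was at 352, 316 and 200 against 209, 86.0 and 48.9 in controls, which overlapped. The difference of 1.54 ± 0.55 did not pass in the fit by group (limma adjusted p = 0.21) and passed with the replicate block (limma adjusted p = 0.0037).

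**Figure D5:**
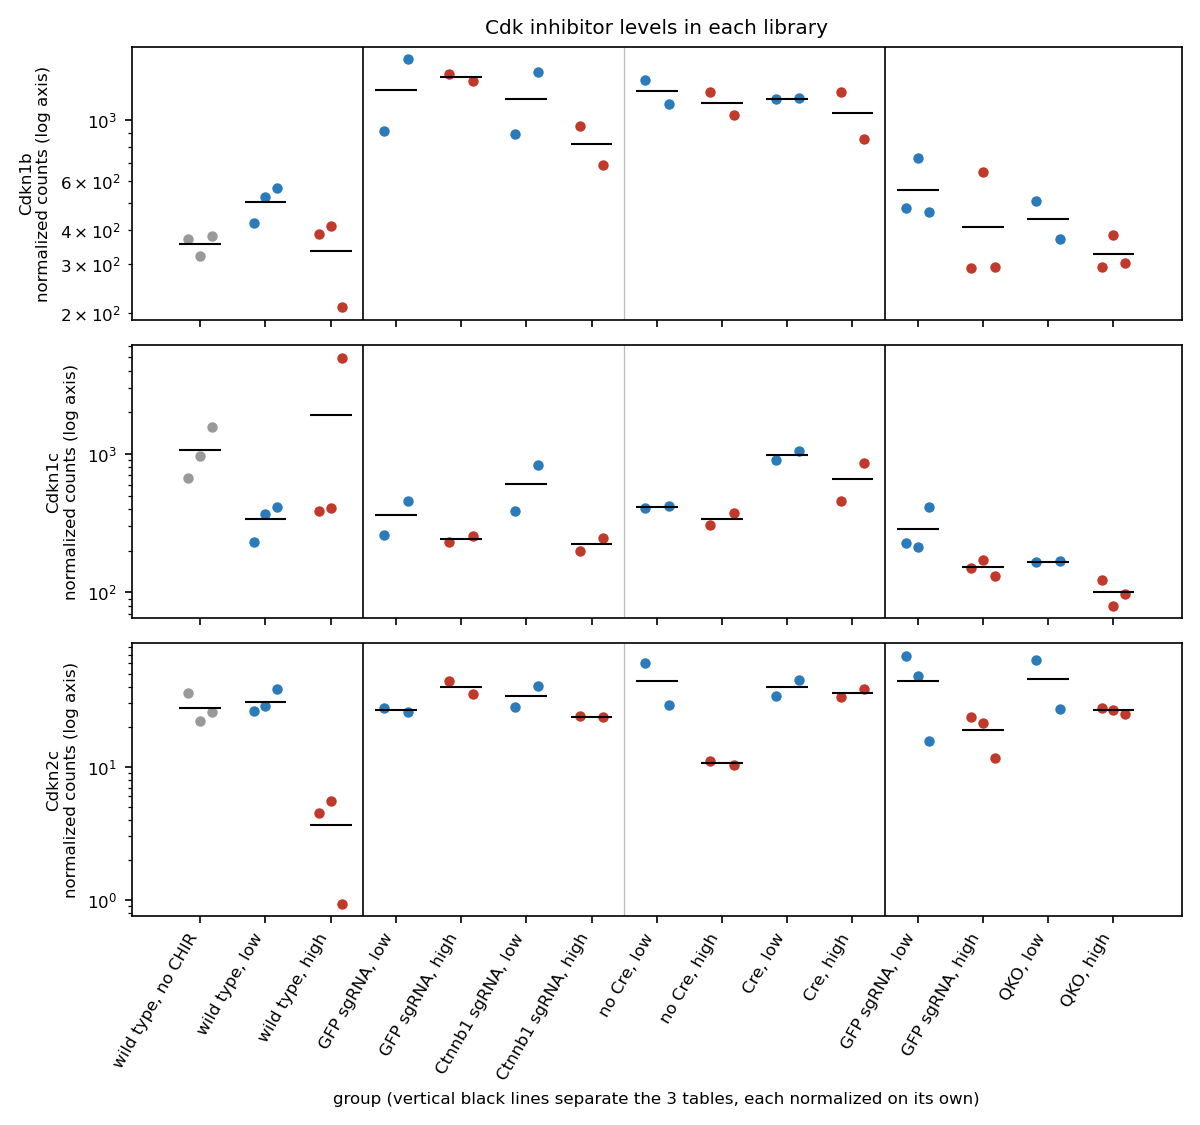
Normalized counts (log axis) of Cdkn1b, Cdkn1c and Cdkn2c in each library, with colours and bars as for the D cyclins. One wild-type high CHIR library holds 4964 Cdkn1c and 0.935 Cdkn2c normalized counts, and Cdkn2c lies at 10.4 and 11.05 in high CHIR without Cre.

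Cdkn1b (chr6:134920401-134925513, plus strand) was called in no comparison of the fit by group. In wild type it was at 423, 526 and 565 in low and 385, 413 and 209 in high CHIR (−0.64, limma adjusted p = 0.15), and at 369, 322 and 379 without CHIR. Removal of β-catenin with guides in high CHIR left 949 and 686 against 1472 and 1384, a difference of −0.82 ± 0.30 (limma adjusted p = 0.14) that passed in a fit of the compared libraries alone (limma adjusted p = 0.036). Cre gave 1261 and 855 against 1259 and 1040 (−0.14).

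Cdkn1c (chr7:143458339-143461050, minus strand) varied most between libraries of 1 group. In wild-type high CHIR it was at 387, 408 and 4964, the last being replicate 3, against 231, 367 and 412 in low and 674, 957 and 1562 in no CHIR. The difference between high and low CHIR was 1.49 ± 0.82 (limma adjusted p = 0.30) and 0.28 without replicate 3 (limma adjusted p = 0.70). All no-CHIR libraries lay above all low ones, by 1.61 ± 0.82 (limma adjusted p = 0.28). That difference passed in a fit of these 6 libraries alone (limma adjusted p = 0.024), which leaves replicate 3 out of the estimate of spread. High against no CHIR gave −0.12 (limma adjusted p = 0.93; 0.83 with edgeR, adjusted p = 0.52). Without replicate 3 the high CHIR libraries all lay below those without CHIR and the gene was called lower, at −1.33 (limma adjusted p = 0.017).

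In the Tcf/Lef controls Cdkn1c was at 227, 212 and 415 in low and 150, 172 and 132 in high CHIR, without overlap. The difference of −0.85 ± 0.27 lay at the threshold (limma adjusted p = 0.051) and passed with the replicate block (limma adjusted p = 0.034), with edgeR (adjusted p = 0.042) and with DESeq2 (adjusted p = 0.013). QKO libraries were lower than the controls in each CHIR level, at 166 and 167 in low and 123, 80.0 and 96.4 in high CHIR. Their differences of −0.70 and −0.61 did not pass (limma adjusted p = 0.90 and 0.32). With Cre the values lay higher. Cdkn1c held 910 and 1044 against 404 and 423 in low CHIR, a difference of 1.23 ± 0.37 (limma adjusted p = 0.22; DESeq2 adjusted p = 0.0498), and 457 and 861 against 304 and 375 in high CHIR (0.89, limma adjusted p = 0.18). With Ctnnb1 guides the groups overlapped in both CHIR levels.

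Cdkn2c (chr4:109660876-109667189, minus strand) had 1 to 142 reads per library, so its values are coarse. In wild type it was at 36.2, 21.95 and 25.7 in no, 26.3, 28.5 and 38.3 in low, and 4.48, 5.58 and 0.935 in high CHIR, the last group resting on 4, 4 and 1 reads. The change from low to high CHIR was −2.94 ± 0.53 on the log2(normalized count + 1) scale (limma adjusted p = 0.0062), and −2.40 without replicate 3 (limma adjusted p = 0.0041). Against no CHIR it was −2.78 (limma adjusted p = 0.0043), and −2.24 without replicate 3. Cells without Cre showed 59.97 and 29.3 in low and 11.05 and 10.4 in high CHIR (−1.88 ± 0.42, limma adjusted p = 0.014). With Cre in high CHIR the values were 33.3 and 38.9, higher by 1.66 ± 0.42 (limma adjusted p = 0.026).

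These 2 calls rest on few libraries. The first was lost without floxed low CHIR replicate 1 (−1.37, limma adjusted p = 0.14) or without either high CHIR library (limma adjusted p = 0.065 and 0.069). The second was lost without any 1 of its 4 libraries (1.55 to 1.77, limma adjusted p = 0.080 to 0.13). In the Cas9 cells Cdkn2c was at 27.8 and 26.0 in low and 44.2 and 35.4 in high CHIR in controls (0.54, limma adjusted p = 0.50), and at 23.9 and 23.8 with Ctnnb1 guides in high CHIR. The CHIR response differed between floxed and Cas9 controls by −2.42 ± 0.60, which did not pass over all genes (limma adjusted p = 0.86), a test that called 0.00596% of them. That test was chosen after the values were seen.

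Counted together, all 10 members passed the filter on low values in every table. In wild-type high against low CHIR 3 of 10 were called, all lower, where 10.6% of all genes were called in either direction and 5.18% lower. In high against no CHIR 4 were called, 2 higher and 2 lower (24.6% of all genes, 12% higher and 12.6% lower). In the Cas9, floxed and Tcf/Lef controls the counts were 1 (7.51% of all genes), 2 (8.06%) and 2 (15.6%), and the block raised the last to 5. In high CHIR, Ctnnb1 guides called 1 member (5.09% of all genes), Cre 2 (8.65%) and the QKO 1 (2.56%). The CHIR response within the QKO called 1 (2.54% of all genes). Medians of the 10 log2 changes lay between −0.54 and 0.39 over all comparisons of the design, beside medians of all genes within 0.04 of 0.

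In the fit by group no member was called by limma in low CHIR after any removal, and few genes were called at all. There 0.0536% of genes were called with Ctnnb1 guides, 0.328% with Cre and 0.0063% in the QKO. At an unadjusted p under 0.05 there were 0, 2 and 3 members, edgeR called none, and DESeq2 called 1, Cdkn1c, with Cre. Limma with the replicate block also called Cdkn1c with Cre. Between no and low CHIR the fit by group likewise called none of 10 (5.04% of all genes), with 2 at an unadjusted p under 0.05. For that comparison edgeR called none, DESeq2 called 1, Ccne2, and limma on the compared libraries alone called 1, Cdkn1c.

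Of 28 other genes of the G1-S pathway (further inhibitors, the retinoblastoma family, E2F factors, Cdk2, its activators and ubiquitin ligase parts), 27 could be tested. In wild-type high against low CHIR 2 were called (10.6% of all genes), both lower: Tfdp1 (−0.55), a dimer partner of E2F, and E2f8 (−1.48), a repressor E2F. The E2f8 fall recurred in the Cas9 controls (−0.71) and the floxed controls (−0.74). Cdc25a, a phosphatase that activates Cdk2, was higher in the Cas9 (0.71) and Tcf/Lef controls (0.49). Cdkn2d, an INK4 inhibitor, was lower in the floxed (−1.14) and Tcf/Lef controls (−0.92), and E2f7 was higher in the latter (0.99). Between no and low CHIR 3 were called (5.04% of all genes), all lower without CHIR: Fzr1 (−1.49), Skp2 (−0.94) and Tfdp1 (−0.55). Between high and no CHIR 6 were called (24.6% of all genes), 5 of them higher, including Fzr1 (0.96), E2f4 (0.80) and E2f2 (1.14), with Cdkn2d lower (−0.92).

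Among the knockouts, Cre in high CHIR called 1 of the 27, Tfdp2 (−0.88; 8.65% of all genes), and the QKO in high CHIR called 1, Cdkn1a (1.82; 2.56% of all genes), the p21 gene. Cdkn1a stood at 5180, 5746 and 5295 in those QKO libraries against 1563, 1357 and 1688 in controls. The CHIR response within the QKO called 1 of the 27, Cdkn2d (−0.75; 2.54% of all genes). Of 6 markers of dividing cells, Mki67 was called lower in high CHIR in the floxed (−0.80) and Tcf/Lef controls (−0.83). None of the 6 was called after any removal, though all 6 had an unadjusted p under 0.05 with Cre in low CHIR, each lower, with a median of −0.68. In wild-type high against low CHIR none was called by limma, all 6 were fitted lower with a median of −0.95, and Mki67 was at 275 in replicate 3 against 1213 and 1380.

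Across all 36 libraries, centred on the mean of each table, the genes most like Ccnd2 in log2 level among 11712 expressed genes were Lhfpl2 (Pearson r = 0.96), Trim16 (0.92) and Tenm4 (0.92). Those most like Ccnd1 were Lama4 (0.87), Clec18a (0.82) and Lhx1os (0.81), and those most like Cdkn1c were Hacd1 (0.83), Tgfb2 (0.83) and Tiam2 (0.81). Ccnd1 and Ccnd2 had r = 0.67 with each other. These libraries share CHIR levels and tables, so the values only describe a common pattern.

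Several members overlap genes on the opposite strand. The study counted unambiguous reads only, so reads in the shared bases could go uncounted if strand was not used. Exons of other genes cover 30.7% of the exon bases of Cdkn1c (Gm44732), 23.4% of Ccnd1 (LTO1), 19.7% of Cdk4 (Tspan31), 17.4% of Ccne2 (Ints8), and 7.86%, 4.11% and 2.63% of Ccnd2, Ccnd3 and Cdk6. Whether the counting used strand is not given in the sources used here, so levels of these members, Cdkn1c above all, are uncertain to that extent. Exons of Ccne1, Cdkn1b and Cdkn2c overlap no other annotated gene.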

How the data were processed

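Per the labels and the methods, the authors made libraries with a low-input cDNA kit, aligned reads to combined mouse (GRCm38) and human genomes with STAR, counted genes with featureCounts and normalized them with DESeq2. The deposited values are counts divided by 1 size factor per library, a signal in normalized counts, in 3 tables normalized separately. Whole reads were recovered from the steps of these values (tolerance 0.01) for the count tests; in 3 libraries the step is close to 1. Columns of the authors' own comparisons (fold changes, p-values) were not used.

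The members, lists and comparisons were chosen with earlier results of these data known. Genes averaging 10 or more normalized counts across a table's libraries were fitted with limma 3.58.1 (R 4.3.3) on log2(normalized count + 1), by group over all libraries of the table. P-values were adjusted by Benjamini-Hochberg over all genes, and a gene was called at an adjusted p under 0.05. Named genes were all members, up to 4 genes of smallest adjusted p per pathway list and comparison, the targeted genes, and the 3 most alike in pattern to Ccnd1, Ccnd2 and Cdkn1c. Alternatives were another pseudocount, no filter, TMM factors, edgeR 4.0.16, DESeq2 1.42.0, fits of the compared libraries alone, a minimum log2 change of 0.5, each library left out, and the replicate number as a block. The contrast of floxed with Cas9 cells was added after the values were seen. In the Tcf/Lef experiment replicate numbers were taken to pair the libraries, since the deviations of every same-numbered pair were correlated (r = 0.25 to 0.64). The fit was tested on simulated data. Depth was 13089780 to 76071568 reads per library.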

Additional observations from a re-analysis of the deposited data

Results flagged for a closer look

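One member stood out by a test of the difference between groups. The response of Ccnd2 to high CHIR differed between floxed cells with and without Cre by −2.32 on the log2 scale (limma adjusted p = 0.00099). Its response was 3.02 without Cre, where high CHIR libraries held 41485 and 41045 normalized counts, and 0.70 with Cre, where they held 8063 and 9431. No group of libraries was large enough to test for a library apart from its group by its gap to the others.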

How the results depend on the processing

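Of the 18 member results called in the comparisons of the design, none changed direction under any alternative. Of their 126 values under alternatives other than leaving out a library, 3 missed the threshold, and of 97 values with a library left out, 13 did. The number of members called moved by more than 1.5 times as follows. DESeq2 called 1 in place of 0 between no and low CHIR, with Cre in low CHIR and in the interaction with Ctnnb1 guides, 2 in place of 0 for the CHIR response after Ctnnb1 guides, and 2 in place of 1 for that in the QKO. Fits of the compared libraries alone called 1 in place of 0 between no and low CHIR and in the guide interaction, 1 in place of 2 in floxed controls and with Cre in high CHIR, and 2 in place of 1 with Ctnnb1 guides in high CHIR. With no filter the count with Cre in high CHIR was 1 in place of 2.

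In the Tcf/Lef experiment the numbers were taken to pair libraries from correlations alone, and the fit by group did not use this pairing. With the replicate block it gave 5 in place of 2 in its controls and 2 in place of 1 for the QKO in high CHIR. For the CHIR response of the QKO the block gave 2 in place of 1. In the Ctnnb1 table, with 2 libraries a group, the numbers are only shared, though same-numbered libraries correlated at 0.14 to 0.52. There the block gave 3 in place of 1 with Ctnnb1 guides in high CHIR (Ccne2 and Cdkn1b added), 3 in place of 2 with Cre in high CHIR (Cdkn1c added), 1 in place of 0 with Cre in low CHIR (Cdkn1c), in the guide interaction (Ccnd2) and for the response after Cre (Ccnd2, 0.70, limma adjusted p = 0.035), and 2 in place of 0 for that after Ctnnb1 guides (Cdkn1c, and Ccnd2 at 0.93, limma adjusted p = 0.0025). In wild type, where same-numbered libraries correlated at −0.016 to 0.27, the block moved no count by that much.

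With a library left out the count ranged from 1 to 2 in floxed controls and from 0 to 1 for the QKO in high CHIR, and it was 1 in place of 2 with Cre in high CHIR whichever library was left out. In wild-type high against low CHIR the change in the share of Ccnd1 was −1.79 points without high CHIR replicate 2 and 12.1 points without replicate 3, against 4.14 with all libraries. That of Ccnd2 was −0.999 points without replicate 3 and 14.2 points without replicate 2, against 8.01.

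The number of all genes called also moved by more than 1.5 times. In wild type, where limma called 1841 in high against low CHIR and 878 in no against low, DESeq2 called 2780 and 1947, and the compared libraries alone gave 1614 for the latter. The replicate block called 2669 in place of 1260 in Cas9 controls, 2755 in place of 1352 in floxed controls and 3889 in place of 2479 in Tcf/Lef controls, and the compared libraries alone gave 552 in floxed controls. With Ctnnb1 guides in high CHIR 854 became 1513 with DESeq2, 1746 with the compared libraries and 2201 with the block, and in low CHIR 9 became 30, 0 and 21, and 0 with TMM or a pseudocount of 0.5. With Cre in high CHIR 1452 became 624 with the compared libraries and 2744 with the block, and in low CHIR 55 became 298 with DESeq2, 4 and 515. In the guide interaction 87 became 212 with DESeq2 and 235 with the block, and in the Cre interaction 167 became 385, 49 with the compared libraries and 526. For the CHIR response after guides 128 became 320, 214 and 447, and after Cre 49 became 95, 0 and 128 (DESeq2, compared libraries, block). For the QKO in high CHIR 407 became 913 with DESeq2 and 1266 with the block, in low CHIR 1 became 24 and 16 (4 with no filter, 0 with the compared libraries), in its interaction 20 became 158 and 136, and for its CHIR response 404 became 940 and 984. The cause was not tested. Groups of 2 or 3 libraries and, for Cdkn2c, few reads limit these results.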
